A study of Bos taurus with 30 samples.

Results

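HMOX1 and 8 other genes of the NRF2 oxidative stress response were followed in bovine endometrial cells kept in a microfluidic device. The 9 genes, HMOX1, NQO1, GCLM, GCLC, SLC7A11, TXNRD1, SRXN1, NFE2L2 and KEAP1, were chosen by name with earlier results of these data known, and they are 9 of the 27607 genes counted, each with 1 identifier. HMOX1 was 1 of the 16 genes that passed the test in epithelial cells between 10 ng/mL insulin and vehicle control, so its values in that comparison, and in every other comparison that uses these libraries, are given as a description without a p-value. All 9 genes passed the filter on low counts in each comparison.

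The transcription factor NRF2, the product of NFE2L2, is held in the cytoplasm and sent for degradation by KEAP1, an adaptor of the CUL3 ubiquitin ligase. Oxidants and electrophiles modify cysteines of KEAP1, and NRF2 then gathers in the nucleus, pairs with a small MAF protein and activates genes for glutathione synthesis, thioredoxin recycling, quinone reduction and haem breakdown. HMOX1, haem oxygenase 1, opens the haem ring to release iron, carbon monoxide and biliverdin, and it is also held down by the repressor BACH1. In the endometrium, the epithelium meets the embryo and the stroma lies beneath it, and both cell types must handle the oxidants that metabolism forms.

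Cells came from uteri of nonpregnant cows early in the luteal phase, and the epithelial cells (upper chamber) and stromal cells (lower chamber) lay on either side of a porous membrane under flow of medium. In the glucose experiment the medium held 5 mM or 50 mM of glucose, and in the insulin experiment it held 5 mM of glucose with insulin at 1 or 10 ng/mL or with vehicle control (acetic acid in phosphate-buffered saline). Each of the 10 groups had 3 biological replicates, which gave 12 glucose and 18 insulin libraries with 8826470 to 16647701 counted reads each. The age and breed of the cows were not given in the sources used here, nor whether libraries of the same replicate number came from the same animal.

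The markers of each cell type were checked first. All 26 epithelial markers were detected in every epithelial library, and the 26 stromal markers were between 1.29% and 13.5% of their stromal level there (median over the markers). In the stromal libraries of the insulin experiment, the epithelial markers were between 0.00432% and 0.377% of their epithelial level, except in replicate 2 of the vehicle control (3.64%) and replicate 1 at 10 ng/mL (3.66%). In the stromal libraries of the glucose experiment they were at 8.02%, 0.0375% and 0.0862% in replicates 1, 2 and 3 at 5 mM, and at 15.4%, 5.98% and 67.3% at 50 mM. The stromal library of replicate 3 at 50 mM thus stood apart from its group, with stromal markers at 47.3% of the stromal level. The epithelial library of replicate 2 at 5 mM also stood apart, with summed epithelial markers of 18440 CPM (counts per 1000000 counted reads) against 9874 to 11320 CPM in the other 14 epithelial libraries. Macrophage markers were low in all 30 libraries, where CD14, CD68, CD163, CSF1R and AIF1 summed to between 3.01 and 19.3 CPM. CD14 (up to 14.3 CPM) and CD68 (up to 4.28 CPM) were detected in every library. CSF1R was at 0 counts in 8 and CD163 in 3 of the 15 epithelial libraries, and both were detected in all 15 stromal libraries. AIF1 was at 0 counts in 11 of the 15 stromal libraries and was detected in all 15 epithelial libraries. Of the endothelial markers CDH5 was at 0 counts in 10 of the 15 epithelial libraries. VWF (15.4 to 76.1 CPM), EMCN (1.26 to 83.7 CPM), PECAM1 and TEK were detected in all 15 of them. The 5 endothelial markers found summed to between 25.3 and 107 CPM in epithelial and between 3.36 and 28.1 CPM in stromal libraries. The 5 smooth muscle markers summed to between 8.61 and 353 CPM and between 559 and 4133 CPM.

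NFE2L2 (ENSBTAG00000019255) had between 143.5 and 185.8 CPM in the 9 epithelial insulin libraries and between 169.6 and 206.7 CPM in the 9 stromal ones. In the glucose experiment, 5 of the 6 epithelial libraries held between 139 and 159 CPM, and the library of replicate 2 at 5 mM held 41.3 CPM. The stromal glucose libraries held between 88.7 and 118 CPM. KEAP1 (ENSBTAG00000003543) had between 46.4 and 61.0 CPM in the epithelial and between 56.8 and 69.6 CPM in the stromal insulin libraries. It had 82.6 CPM in the epithelial library with the lowest NFE2L2 level, and between 50.9 and 57.1 CPM in the other 5 epithelial glucose libraries. The stromal glucose libraries held between 37.2 and 58.2 CPM of KEAP1, so the cell types overlapped for KEAP1 in this experiment, and for NFE2L2 they overlapped through the epithelial library of replicate 2 at 5 mM alone.

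HMOX1 (ENSBTAG00000015582) had its highest levels in epithelial cells of the glucose experiment. At 5 mM it had 282 CPM in replicate 1, 73.9 CPM in replicate 2 and 137 CPM in replicate 3, and at 50 mM it had 236.5, 80.9 and 149 CPM. Replicate 1 was the highest and replicate 2 the lowest at both concentrations, so the spread between replicate numbers was wider than that between glucose concentrations. The stromal cells had 121.5, 31.4 and 23.8 CPM at 5 mM and 105, 43.4 and 128 CPM at 50 mM. In the insulin experiment, the 9 epithelial libraries lay between 41.4 and 109 CPM (median 50.9) and the 9 stromal libraries between 19.4 and 28.2 CPM (median 23.5), without overlap. The share of all genes without overlap was not counted.

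Ordered by the group mean, HMOX1 in epithelial cells was at 164.5 ± 107 CPM (SD, n = 3) with 5 mM of glucose and at 155.5 ± 78.0 with 50 mM, and it was at 92.3 ± 43.8 in stromal cells at 50 mM. Epithelial cells at 10 ng/mL of insulin followed with 68.0 ± 35.7 CPM, stromal cells at 5 mM glucose with 58.9 ± 54.3, and epithelial cells at 1 ng/mL with 55.0 ± 2.63 and with vehicle control with 45.7 ± 4.04 CPM. The lowest means were those of stromal cells with vehicle control (25.6 ± 2.43 CPM), 1 ng/mL (23.5 ± 4.14 CPM) and 10 ng/mL (22.6 ± 4.51 CPM). Neighbouring groups in this order overlapped in their libraries, except that epithelial cells at 1 ng/mL lay above those with vehicle control and these lay above stromal cells with vehicle control. CPM values were made in the same way for both experiments, but levels were not tested across experiments, which had a count table each.

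**Figure D1:**
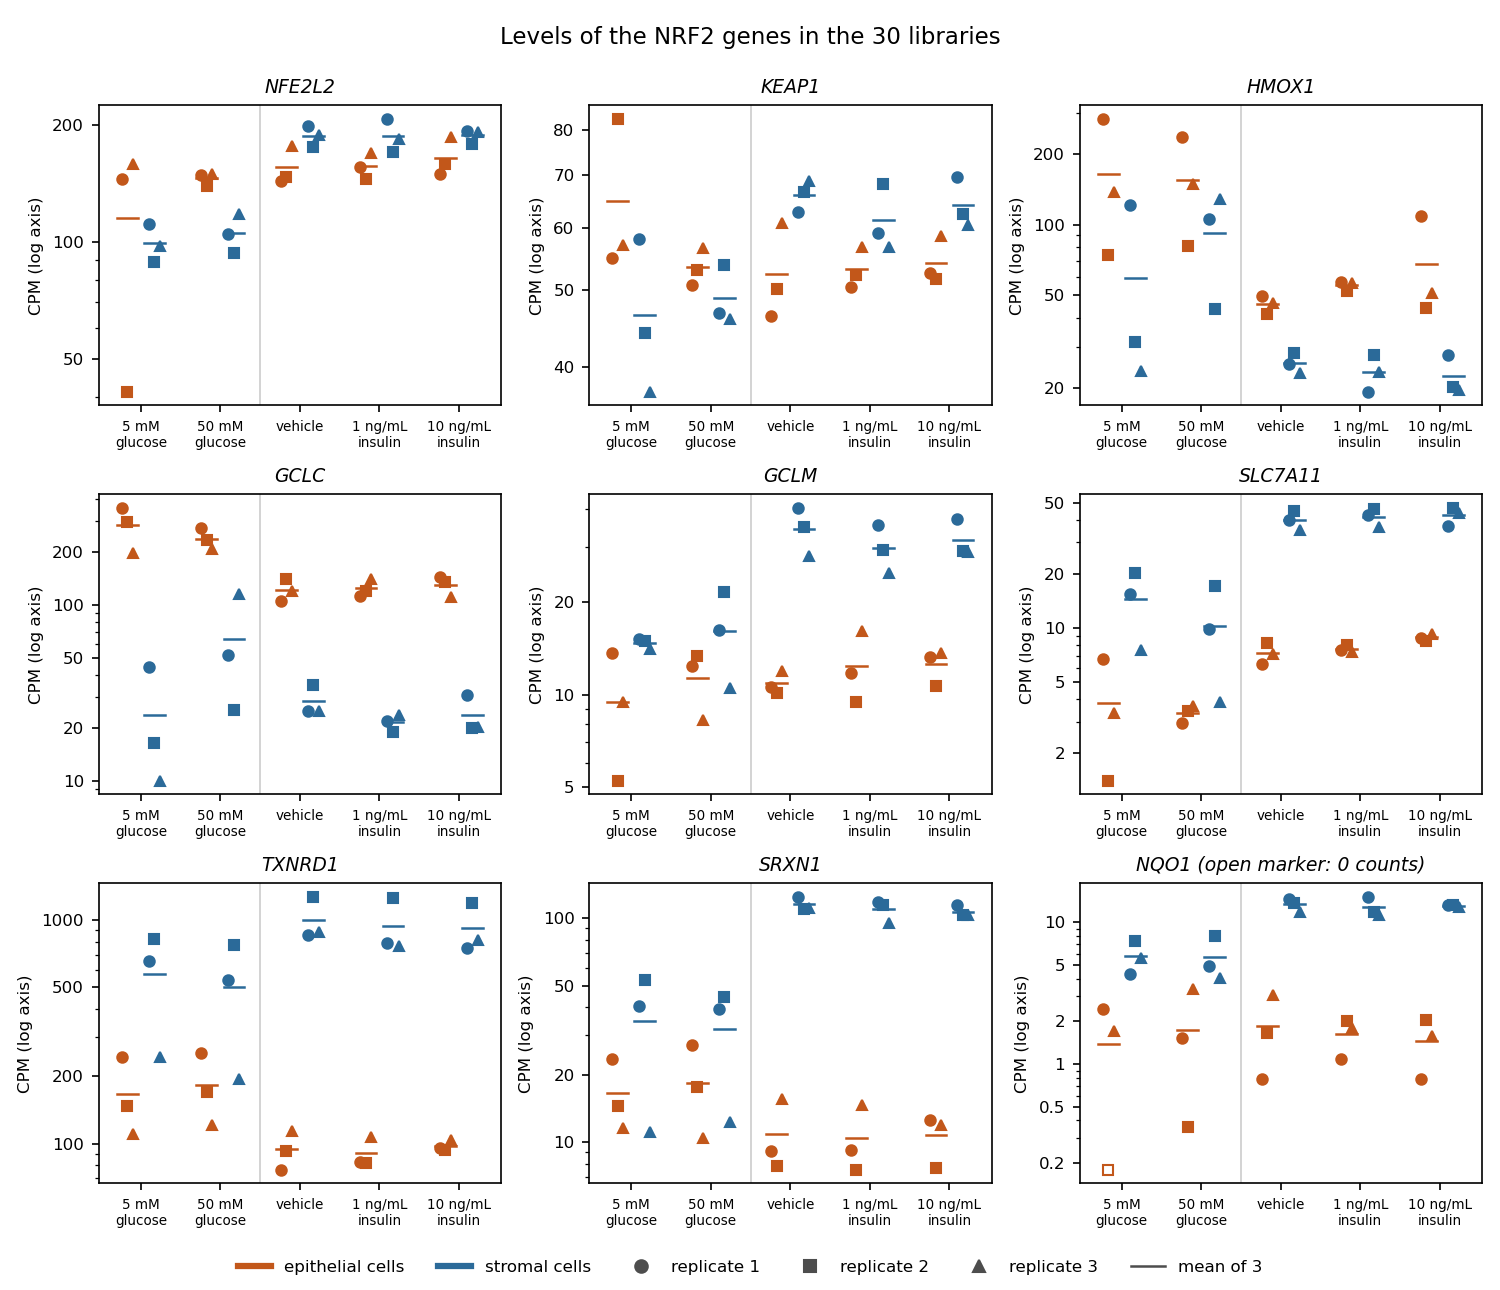
Level of each gene in the 30 libraries, in CPM on a log axis, by glucose or insulin group (horizontal axis), with epithelial cells in orange, stromal cells in blue, a marker shape for each replicate number and a line at the mean of 3. HMOX1 and GCLC lay higher in epithelial cells, and TXNRD1, SRXN1, SLC7A11, GCLM and NQO1 lay higher in stromal cells of the insulin experiment; the epithelial library of replicate 2 at 5 mM was lowest in NFE2L2 (41.3 CPM), highest in KEAP1 (82.6 CPM) and at 0 counts of NQO1.

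Of the other targets, GCLC (ENSBTAG00000015571) codes for the catalytic subunit of glutamate-cysteine ligase, the first step of glutathione synthesis, and GCLM (ENSBTAG00000007842) codes for the modifier subunit. In the vehicle control, GCLC had 105.5, 140.5 and 120 CPM in epithelial cells and 25.1, 35.3 and 25.1 CPM in stromal cells, for replicates 1, 2 and 3. GCLM had 10.6, 10.1 and 11.9 CPM in epithelial cells and 40.2, 34.9 and 28.2 CPM in stromal cells. The subunit genes were thus high in opposite cell types, and the groups did not overlap for either gene.

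SLC7A11 (ENSBTAG00000034075), the cystine importer that supplies cysteine for glutathione, had 6.27, 8.27 and 7.13 CPM in epithelial cells and 40.0, 44.8 and 35.1 CPM in stromal cells with vehicle control. TXNRD1 (ENSBTAG00000013912), the cytosolic thioredoxin reductase, had 76.5, 92.5 and 114 CPM against 858, 1266 and 883 CPM. SRXN1 (ENSBTAG00000010913), sulfiredoxin, which restores overoxidised peroxiredoxins, had 9.17, 7.85 and 15.7 CPM against 124, 110 and 112 CPM. NQO1 (ENSBTAG00000020632), a quinone reductase, was low in both cell types, with 0.784, 1.65 and 3.10 CPM against 14.6, 13.8 and 11.8 CPM. Each of these 4 genes was higher in every stromal than in every epithelial library of this group. For these and for GCLC and GCLM, the share of all genes that separated in this way was not counted. In the test below, 27.8% of all genes were called higher and 27.3% lower in epithelial cells of this group.

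The comparison of epithelial with stromal cells asked where in the device each gene was expressed. Genes were called at a log2 fold change of over 0.1 in size and an adjusted p below 0.05, with p from the quasi-likelihood test of edgeR and the Benjamini-Hochberg method over every gene tested. With vehicle control, 8 of the 8 genes other than HMOX1 were called, 1 higher and 7 lower in epithelial cells, where 27.8% of the 13395 genes tested were called higher and 27.3% lower. The log2 fold change of GCLC was 2.03 (standard error 0.102, adjusted p = 0.000904), and that of GCLM was -1.73 (standard error 0.144, adjusted p = 0.00151). SRXN1 had -3.53 (standard error 0.213, adjusted p = 0.000978) and TXNRD1 had -3.48 (standard error 0.198, adjusted p = 0.000936), the largest differences among the 9. NQO1 had -3.04 (standard error 0.419, adjusted p = 0.00449) and SLC7A11 had -2.55 (standard error 0.110, adjusted p = 0.000899).

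The regulators differed less between the cell types, with -0.42 for KEAP1 (adjusted p = 0.0167) and -0.35 for NFE2L2 (adjusted p = 0.0348). Without any 1 of the 3 replicates, neither of these 2 genes passed (adjusted p from 0.0594 to 0.0931 for KEAP1 and from 0.102 to 0.126 for NFE2L2), and the fold changes lay from -0.45 to -0.37 and from -0.37 to -0.33. Calls over all genes fell as well, to 5195, 5788 and 5762 without replicates 1, 2 and 3, against 7392 with all replicates. HMOX1 was 0.76 higher in epithelial cells with vehicle control on the log2 scale (standard error 0.141) and higher in 3 of 3 pairs of one replicate number. In bulk RNA, fewer cells of a type and less RNA of a gene per cell cannot be told apart.

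At 1 ng/mL of insulin, 9 of the 9 genes were called, 2 higher and 7 lower, beside 29.6% of all genes higher and 29.3% lower. At 10 ng/mL, 7 of the 8 genes other than HMOX1 were called, 1 higher and 6 lower, beside 27.1% and 27.3%, and NFE2L2 (-0.30, adjusted p = 0.0583) was the 1 that was not. Without any 1 replicate, KEAP1 (adjusted p from 0.0714 to 0.239) and NFE2L2 (from 0.0741 to 0.0954) did not pass at 1 ng/mL. Calls over all genes there were 6345, 6740 and 6477 without replicates 1, 2 and 3, against 7852 with all replicates. With DESeq2 neither KEAP1 (0.181) nor NFE2L2 (0.054) passed at 1 ng/mL, where 6708 of all genes were called. KEAP1 also did not pass with RLE size factors (0.0594) or no filter on low counts (0.0614), where 7839 and 8121 of all genes were called. KEAP1 at 10 ng/mL did not pass with DESeq2 (0.0805) or without any 1 replicate (0.082 to 0.16). Calls over all genes there were 6628 with DESeq2 and 6124, 4940 and 4974 without replicates 1, 2 and 3, against 7224. At 1 ng/mL, which shares no library with the comparison that HMOX1 was chosen on, HMOX1 had 56.7, 52.0 and 56.4 CPM in epithelial and 19.4, 27.6 and 23.5 CPM in stromal cells, so that the difference was 1.13 on the log2 scale (SE 0.151, adjusted p = 0.00191). GCLC had 2.42 (standard error 0.109, adjusted p = 7.43e-05) there, and SRXN1, TXNRD1, NQO1, SLC7A11 and GCLM lay between -3.53 and -1.39. At 10 ng/mL, HMOX1 had 109, 44.1 and 50.9 CPM against 27.8, 20.3 and 19.7 CPM (1.39, standard error 0.228), and without replicate 1 the difference was 1.07. GCLC had 2.37 and the 5 genes lay between -3.44 and -1.44.

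In the glucose experiment, the fold changes of the 7 targets had the same signs and the replicates lay wider apart. At 5 mM, 3 genes were called, GCLC (3.61, standard error 0.434, adjusted p = 0.00579), HMOX1 (1.44, standard error 0.388, adjusted p = 0.0482) and TXNRD1 (-1.89, standard error 0.387, adjusted p = 0.0205), beside 10.5% of all genes higher and 10.6% lower. Without replicate 1 the calls were 5 of the 9 and 3219 of all 14165 genes tested, against 2944 of 13927 with all replicates. HMOX1 was higher in 3 of 3 pairs, but it did not pass without replicate 2 (1.62, adjusted p = 0.0589), without replicate 3 (1.03, adjusted p = 0.435) or without the replicate block (1.22, adjusted p = 0.284). Over genes, the deviations of same-numbered libraries from their group means were weakly correlated in this comparison (0.0966, 0.0327 and 0.333 in replicates 1, 2 and 3). At 50 mM, 2 genes were called, GCLC (1.99, adjusted p = 0.0438) and TXNRD1 (-1.46, adjusted p = 0.0398), beside 6.39% and 10.9%. HMOX1 had 0.61 (standard error 0.203, adjusted p = 0.0948) at 50 mM, and it passed without replicate 3 (0.85, adjusted p = 0.0208), whose stromal library held the epithelial markers at 67.3%. Without replicate 3, the calls at 50 mM were 6 of the 9 and 3897 of all 14010 genes tested, against 2397 of 13892 with all replicates. Without replicate 1 they were 0 of the 9 and 0 of all 14019 genes, where GCLC had 1.93 (adjusted p = 0.277) and TXNRD1 had -1.52 (adjusted p = 0.252). At 5 mM and 50 mM the fold changes were -2.21 and -1.58 for SLC7A11, -2.67 and -2.05 for NQO1, -1.08 and -0.86 for SRXN1 and -0.95 and -0.63 for GCLM, none of which passed the test. NQO1 at 5 mM moved to -1.50 (adjusted p = 0.0784) without replicate 2, whose epithelial library had 0 counts, and it passed without replicate 1 (-3.83, adjusted p = 0.00117), without replicate 3 (-3.39, adjusted p = 0.0454) and with DESeq2 (-2.90, adjusted p = 0.0163). SLC7A11 at 5 mM (adjusted p = 0.0577) passed whichever replicate was left out, with fold changes from -2.67 to -1.43.

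**Figure D2:**
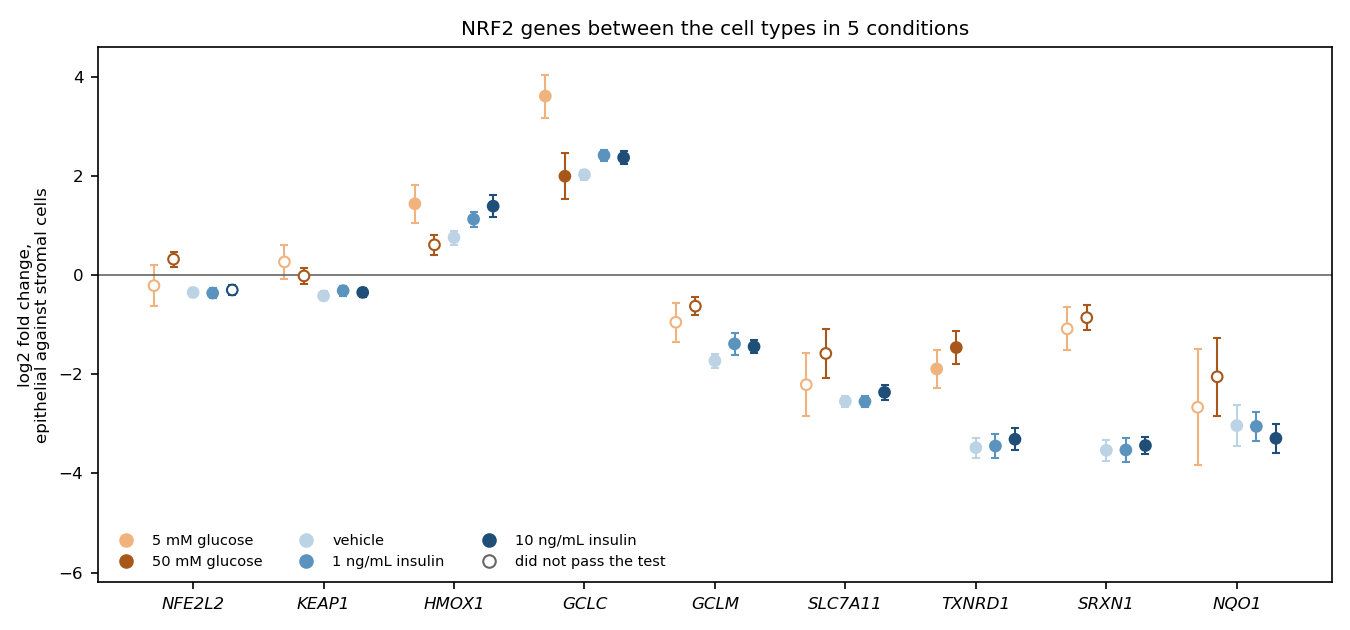
Log2 fold change of each gene between epithelial and stromal cells (vertical axis) with its standard error, in the 2 glucose and 3 insulin groups, with filled points where the gene passed the test; the points of HMOX1 with vehicle control and at 10 ng/mL are a description, since HMOX1 was chosen on these libraries. GCLC and HMOX1 lay above 0 in all 5 groups, SLC7A11, TXNRD1, SRXN1, NQO1 and GCLM lay below 0, and NFE2L2 and KEAP1 lay between -0.42 and 0.32.

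The share of stromal markers in epithelial libraries was set beside the genes that were low there. With vehicle control, the stromal markers were at 4.54%, 1.29% and 10.4% of their stromal level in epithelial replicates 1, 2 and 3. TXNRD1 was at 8.92%, 7.30% and 12.9% of the stromal library of the same number, SRXN1 at 7.37%, 7.11% and 14.0%, and NQO1 at 5.37%, 12.0% and 26.2%. SLC7A11 was at 15.7%, 18.4% and 20.3% and GCLM at 26.3%, 29.1% and 42.3%. With vehicle control all 5 shares were highest in replicate 3, whose epithelial library had the highest stromal markers. This order did not hold in every group. At 10 ng/mL stromal markers were again highest in replicate 3 (10.4%), as were the shares of SRXN1 and GCLM. TXNRD1 was at 12.8% in replicates 1 and 3, SLC7A11 was highest in replicate 1 (23.7%) and NQO1 in replicate 2 (15.5%). At 50 mM all 5 shares were highest in replicate 3, where stromal markers were lowest (8.39%). Its stromal library held epithelial markers at 67.3%. The part of stromal RNA in the epithelial levels was not tested. In the other direction, GCLC in stromal cells with vehicle control was at 23.8%, 25.1% and 21.0% of its epithelial level and HMOX1 at 51.4%, 67.9% and 50.5%, with epithelial markers at 0.0978%, 3.64% and 0.0577%. Stromal replicates 1 and 3 of this group held 5 and 8 of the 26 epithelial markers at 0 counts.

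The effect of glucose within a cell type was compared between 50 mM and 5 mM. In epithelial cells, 0 of the 9 genes were called by edgeR and 0 had an unadjusted p under 0.05, where 0% of all genes were called and 1.55% had an unadjusted p under 0.05. DESeq2 called 0 as well. Without replicate 2, whose 5 mM library stood apart, 221 of all 13906 genes were called and 0 of the 9. The log2 fold change of HMOX1 was 0.0016 (standard error 0.208, 95% interval from -0.52 to 0.52), and that of GCLC was -0.22 (standard error 0.220, adjusted p = 0.804). NFE2L2 had 0.55 (standard error 0.402, adjusted p = 0.804) and KEAP1 had -0.25 (standard error 0.247, adjusted p = 0.804), and without replicate 2 these were 0.01 and -0.03. NQO1 had 0.57 (standard error 0.713), with 0 counts in that library, which allows up to 0.222 CPM for counting error only, and 0.21 without replicate 2. Of the stromal markers 25 were tested in these epithelial libraries, with a median log2 fold change of 0.71 and 25 above 0 (0 called). The 26 epithelial markers had -0.19, with 8 above 0 (0 called). The part of the markers in the values of the 9 genes was not tested.

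In stromal cells, 0 of the 9 genes were called between 50 mM and 5 mM by edgeR, and 1 had an unadjusted p under 0.05, where 0% of all genes were called and 4.87% had an unadjusted p under 0.05. DESeq2 called 178 of all genes and 0 of the 9. SLC7A11 had 15.4, 20.4 and 7.50 CPM at 5 mM and 9.89, 17.1 and 3.87 CPM at 50 mM in replicates 1, 2 and 3. Its level was lower at 50 mM in 3 of 3 pairs, with a log2 fold change of -0.67 (standard error 0.192, unadjusted p = 0.0232, adjusted p = 0.696) that lay between -0.81 and -0.47 without 1 replicate. TXNRD1 had 654, 817 and 244 CPM at 5 mM and 538, 776 and 193.5 CPM at 50 mM, also lower in 3 of 3 pairs (-0.30, standard error 0.13, adjusted p = 0.696). The 3 pairs lay at different levels, and TXNRD1 of replicate 3 was low at both concentrations.

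GCLC had 44.2, 16.5 and 10.1 CPM in stromal cells at 5 mM and 51.9, 25.3 and 116 CPM at 50 mM. Its log2 fold change was 1.31 (standard error 0.742, adjusted p = 0.696), and it was 0.39 without replicate 3. HMOX1 had 0.80 (standard error 0.545, adjusted p = 0.698), and 0.09 without replicate 3. In replicate 3 alone HMOX1 was 5.38-fold higher at 50 mM, against 1.38-fold in replicate 2 and 0.867-fold in replicate 1. The epithelial markers in these pairs went from 0.0862% to 67.3%, from 0.0375% to 5.98% and from 8.02% to 15.4%, and their part in the values of GCLC, HMOX1, SLC7A11 and TXNRD1 was not tested. The 26 epithelial markers had a median log2 fold change of 4.37 between 50 mM and 5 mM in stromal cells (0 called), and the 26 stromal markers had -0.53 (0 called).

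**Figure D3:**
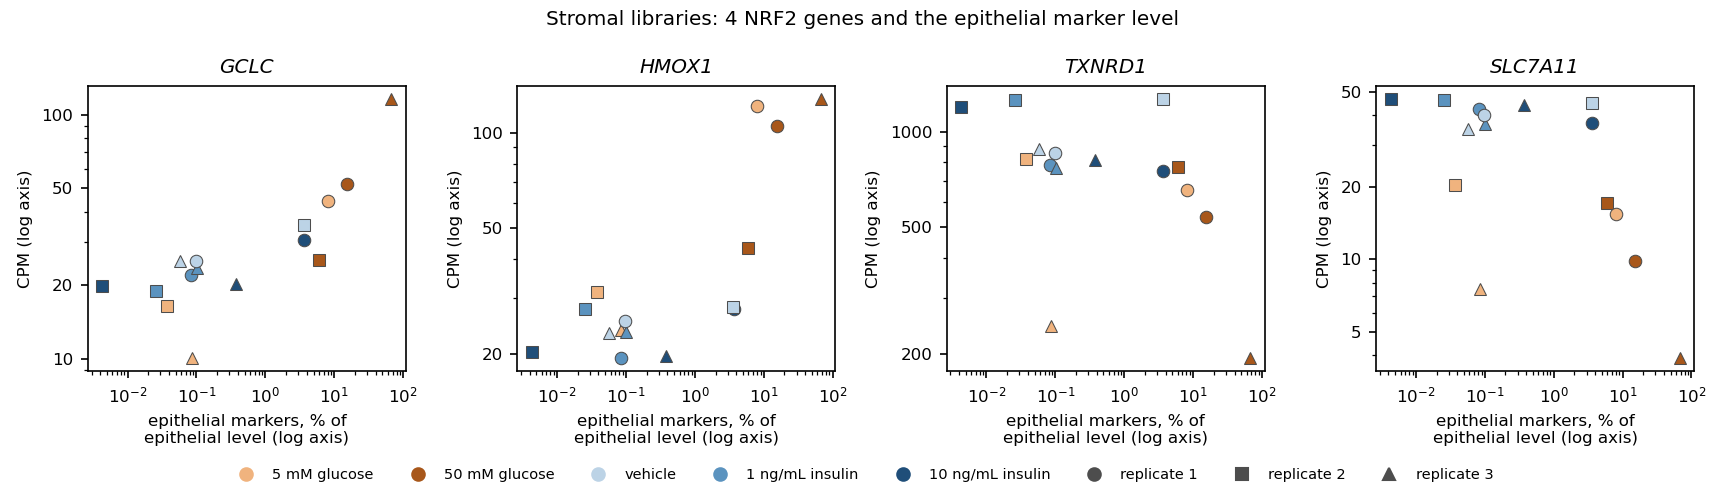
Level of GCLC, HMOX1, TXNRD1 and SLC7A11 (vertical axes, CPM, log) in the 15 stromal libraries against the median level of 26 epithelial markers in the same library as a percent of the epithelial level (horizontal axes, log), with colours for the groups and shapes for the replicate numbers. The library of replicate 3 at 50 mM, at 67.3%, was the highest in GCLC (116 CPM) and HMOX1 (128 CPM) and the lowest in TXNRD1 (193.5 CPM) and SLC7A11 (3.87 CPM).

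A test of the difference of the glucose effect between the cell types called 0 of the 9 genes, and 0 had an unadjusted p under 0.05, where 0% of all genes were called and 7.53% had an unadjusted p under 0.05. DESeq2 called 250 of all genes and 0 of the 9. GCLC had a difference of -1.54 (epithelial minus stromal, standard error 0.774, adjusted p = 0.709), and HMOX1 had -0.81 (standard error 0.588, adjusted p = 0.781). Leaving out replicate 3 gave -0.79 and -0.19. The 26 epithelial markers had a median difference of -4.59, with 0 of them above 0. The 26 stromal markers had 1.30, with 26 above 0, and 0 were called in either list. The part of the markers in the values of GCLC and HMOX1 was not tested.

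The effect of insulin was compared with the vehicle control in each cell type. HMOX1 in epithelial cells had 49.5, 41.4 and 46.2 CPM with vehicle control, 56.7, 52.0 and 56.4 CPM at 1 ng/mL and 109, 44.1 and 50.9 CPM at 10 ng/mL, for replicates 1, 2 and 3. The library of replicate 1 at 10 ng/mL was the highest of the 9, and the libraries of replicates 2 and 3 at 10 ng/mL lay below those at 1 ng/mL. In pairs of one number, 10 ng/mL gave 2.20-fold, 1.06-fold and 1.10-fold the vehicle level, and 1 ng/mL gave 1.15-fold, 1.25-fold and 1.22-fold. Standard errors are left out here, since HMOX1 was chosen on these libraries and those of the fit do not show the spread between pairs. As a description, the log2 fold change was 0.53 between 10 ng/mL and vehicle control, 0.26 between 1 ng/mL and vehicle control, and 0.24 between 10 and 1 ng/mL. Without replicate 1, these were 0.12, 0.32 and -0.20. Between 10 ng/mL and vehicle control it was 0.70 without replicate 2, 0.69 without replicate 3, 0.45 with DESeq2, 0.57 without the replicate block and 0.53 in 1 fit of the 9 epithelial insulin libraries. The epithelial and stromal markers of the epithelial library of replicate 1 at 10 ng/mL were at 99.8% and 4.43%, against 94.9% and 4.54% in the vehicle library of the same number.

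**Figure D4:**
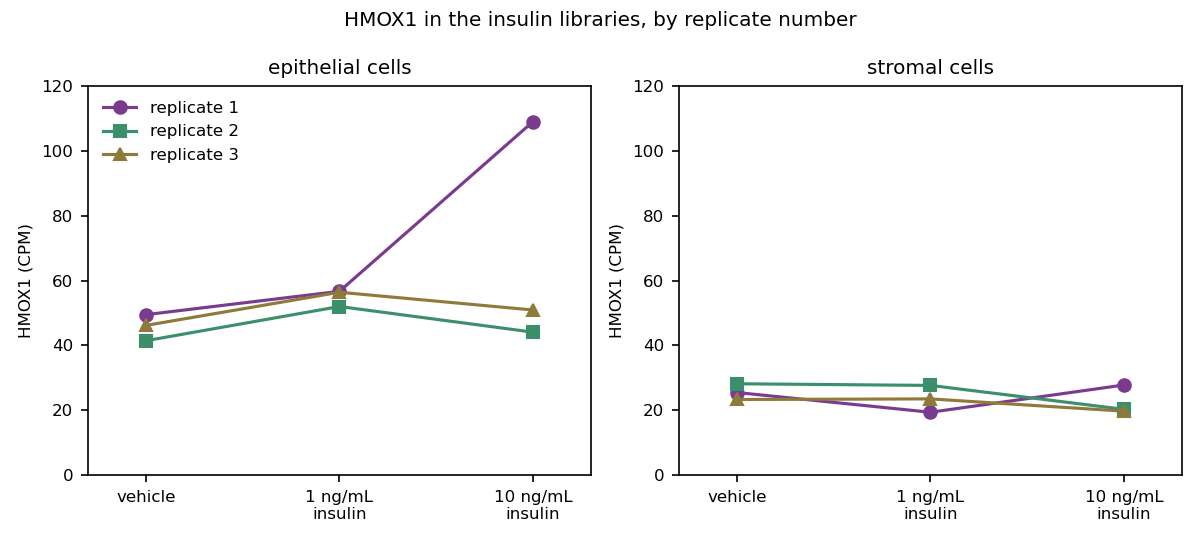
HMOX1 in CPM (vertical axis, from 0) in epithelial and stromal cells at each insulin dose and without insulin, with a line for each replicate number. In epithelial cells replicate 1 went to 109 CPM at 10 ng/mL while replicates 2 and 3 had 44.1 and 50.9 CPM, and all 9 stromal libraries lay between 19.4 and 28.2 CPM.

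Among the other 8 genes in epithelial cells, 0 were called by edgeR or DESeq2 in any of the 3 insulin comparisons. Between 1 ng/mL and vehicle control, 0 of the 8 had an unadjusted p under 0.05, where 0% of all genes were called and 2.93% had an unadjusted p under 0.05. Between 10 ng/mL and vehicle control, 1 of the 8 did, where 0.124% of all genes were called and 6.5% had an unadjusted p under 0.05. This was SLC7A11, with 8.8, 8.50 and 9.24 CPM at 10 ng/mL against 6.27, 8.27 and 7.13 CPM, higher in 3 of 3 pairs (log2 fold change 0.29, standard error 0.142, unadjusted p = 0.0464, adjusted p = 0.713). Between 10 and 1 ng/mL, 0 of the 8 had an unadjusted p under 0.05, where 0% of all genes were called and 4.2% had an unadjusted p under 0.05. Over the 3 comparisons the log2 fold changes of the 8 genes lay between -0.34 and 0.29, with 95% intervals between -0.99 and 0.58.

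In stromal cells, HMOX1 had 25.4, 28.2 and 23.3 CPM with vehicle control, 19.4, 27.6 and 23.5 CPM at 1 ng/mL and 27.8, 20.3 and 19.7 CPM at 10 ng/mL, with overlap between the groups. The log2 fold changes were -0.11 (standard error 0.0894, adjusted p = 0.949) at 1 ng/mL, -0.19 (standard error 0.113, adjusted p = 0.999) at 10 ng/mL and -0.08 (standard error 0.141, adjusted p = 1.00) between the doses. Between 1 ng/mL and vehicle control, 0 of the 9 genes were called by edgeR and by DESeq2 and 2 had an unadjusted p under 0.05, where 0.0157% of all genes were called and 5.16% had an unadjusted p under 0.05. These were GCLC and GCLM, both lower at 1 ng/mL in 3 of 3 pairs. GCLC had 25.1, 35.3 and 25.1 CPM with vehicle control and 22.0, 19.0 and 23.6 CPM at 1 ng/mL (-0.37, standard error 0.131, unadjusted p = 0.0140, adjusted p = 0.895), and without replicate 2, whose vehicle library held the epithelial markers at 3.64%, the fold change was -0.10. Without replicate 3 GCLC passed the test (-0.52, adjusted p = 0.0218), where 103 of all 12816 genes were called, against 2 of 12711 with all replicates. GCLM had 40.2, 34.9 and 28.2 CPM against 35.5, 29.3 and 24.7 CPM (-0.18, standard error 0.0723, unadjusted p = 0.0287, adjusted p = 0.917).

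Between 10 ng/mL and vehicle control in stromal cells, 0 of the 9 genes were called by either tool and 0 had an unadjusted p under 0.05, where 0% of all genes were called and 2.79% had an unadjusted p under 0.05. Between 10 and 1 ng/mL the counts were 0 and 0, where 0.0313% of all genes were called and 3.91% had an unadjusted p under 0.05. The log2 fold changes of the 9 genes lay between -0.27 and 0.09 in the first and between -0.08 and 0.10 in the second comparison.

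The difference of the insulin effect between the cell types was tested over the 18 insulin libraries. At 1 ng/mL, 0 of the 8 genes other than HMOX1 were called by edgeR or DESeq2 and 1 had an unadjusted p under 0.05, where 0% of all genes were called and 5.5% had an unadjusted p under 0.05. This was GCLM, with a difference of 0.36 (epithelial minus stromal, standard error 0.140, unadjusted p = 0.0220, adjusted p = 0.891). At 10 ng/mL, 0 of the 8 were called by either tool and 0 had an unadjusted p under 0.05, where 0% of all genes were called and 4.06% had an unadjusted p under 0.05. HMOX1 had a difference of 0.37 (standard error 0.285) at 1 ng/mL and 0.68 (standard error 0.286) at 10 ng/mL, given as a description, and the second was 0.47 without replicate 1.

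Other genes of the pathway were counted from 7 lists, of which 65 to 68 genes were tested within a cell type: regulators, haem and iron, glutathione, thioredoxin and peroxiredoxin, NADPH supply, detoxification and export, and superoxide and peroxide. Between epithelial and stromal cells with vehicle control, 17 of 67 were called higher and 18 lower, beside 27.8% and 27.3% of all genes, and the median log2 fold change was -0.12 beside 0.00295 over all genes. The counts were 19 and 21 of 66 at 1 ng/mL (29.6% and 29.3% of all genes), 17 and 20 of 67 at 10 ng/mL (27.1% and 27.3%), 7 and 3 of 67 at 5 mM of glucose (10.5% and 10.6%), and 3 and 5 of 67 at 50 mM (6.39% and 10.9%).

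Among the regulators, 2 of 12 were called higher and 4 lower with vehicle control. BACH1, the repressor of HMOX1, was 0.49 higher in epithelial cells (adjusted p = 0.0126), as was RBX1 of the KEAP1 ligase (0.47, adjusted p = 0.0392). MAFG, a small MAF partner of NRF2, was lower (-1.05, adjusted p = 0.00799), as was SQSTM1 (-1.28, adjusted p = 0.00957), whose product binds KEAP1 in autophagy. Among the haem and iron genes, 3 of 11 were higher and 5 lower. FTH1, the ferritin heavy chain, was 1.43 higher in epithelial cells (adjusted p = 0.00711), and the transferrin receptor TFRC was 1.49 higher (adjusted p = 0.00147). The iron exporter SLC40A1 was -4.67 (adjusted p = 0.000899) and the haem transporter SLC48A1 was -3.46 (adjusted p = 0.000899), the lowest 2 of these genes in epithelial cells. Both were lower in epithelial cells at 5 mM (-3.55 and -2.63) and 50 mM (-2.38 and -2.18) of glucose as well, where each passed the test.

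Of the glutathione genes, 4 of 14 were higher and 3 lower with vehicle control, led by the secreted peroxidase GPX3 (3.51, adjusted p = 0.00132) and the microsomal transferase MGST1 (3.66, adjusted p = 0.00150), against the transferases GSTM3 (-3.19, adjusted p = 0.00426) and GSTA4 (-1.53, adjusted p = 0.00203). Of the thioredoxin and peroxiredoxin genes, 4 of 12 were higher and 2 lower. The 2 lower genes were thioredoxin itself, TXN (-1.25, adjusted p = 0.00224), and PRDX1 (-1.95, adjusted p = 0.00156), and the highest were PRDX5 (1.95, adjusted p = 0.00113) and PRDX2 (0.93, adjusted p = 0.00479). The NADPH list had 2 of 6 higher, PGD (0.73, adjusted p = 0.0155) and TKT (0.77, adjusted p = 0.0129), and 0 lower. The detoxification list had 1 of 8 higher, the exporter ABCC3 (2.53, adjusted p = 0.00120), and 3 lower, among them CBR1 (-2.57, adjusted p = 0.00560) and EPHX1 (-1.58, adjusted p = 0.0159). Of the superoxide genes, 1 of 4 was higher, mitochondrial SOD2 (1.33, adjusted p = 0.00269), and 1 lower, cytosolic SOD1 (-0.88, adjusted p = 0.00944).

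In the other 4 groups the naming rule gave mostly the same genes. At 1 and 10 ng/mL, GPX3 had 4.19 and 3.35, MGST1 had 3.71 and 3.71, and ABCC3 had 2.71 and 2.60. GSTM3 had -4.07 and -4.30, GSTA4 had -1.47 and -1.36, CBR1 had -2.14 and -2.32, and EPHX1 had -1.89 and -1.77. SLC40A1 had -4.93 and -4.76, SLC48A1 had -3.43 and -3.39, FTH1 had 1.38 and 1.46, and TFRC had 1.67 and 1.28. BACH1 had 0.59 and 0.56, MAFG had -0.99 and -1.10, and SQSTM1 had -1.14 and -1.15, beside MAFF, another small MAF gene, with 0.59 and 0.52. PRDX5 had 1.97 and 1.88, PRDX1 had -1.90 and -1.86, TXN had -1.25 and -1.27, SOD2 had 1.43 and 1.53, SOD1 had -0.82 and -0.94, PGD had 0.82 and 0.71, and TKT had 0.87 and 0.83. The rule added SOD3 (0.91), TXNRD2 (1.05) and ME1 (-0.39) at 1 ng/mL, and PRDX3 (0.92) at 10 ng/mL. At 5 mM of glucose it gave ABCC3 (2.19), GPX3 (4.44), MGST1 (2.57), FTH1 (1.82), HMOX2 (1.86), PRDX5 (1.97) and GSTM3 (-3.20), and at 50 mM ABCC3 (1.49), HMOX2 (0.83), TFRC (1.35), GSTM3 (-1.95) and PRDX1 (-0.91), beside SLC40A1 and SLC48A1. HMOX2 codes for the constitutive haem oxygenase. Each of these genes passed the test of edgeR in its group, with adjusted p-values from 7.96e-05 to 0.047.

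Within a cell type, 0 genes of the 7 lists were called by edgeR in any of the 8 comparisons of glucose or insulin. Over all genes, between 0% and 0.124% were called. For glucose, 0 of 68 list genes in epithelial and 5 of 67 in stromal cells had an unadjusted p under 0.05 (1.55% and 4.87% of all genes). In epithelial cells the counts were 0 of 66 for 1 ng/mL against vehicle control (2.93%), 5 of 65 for 10 ng/mL (6.5%) and 4 of 66 between the doses (4.2%). In stromal cells they were 2 of 66 (5.16%), 3 of 67 (2.79%) and 2 of 66 (3.91%). The genes with the smallest p in epithelial cells between 10 ng/mL and vehicle control were TFRC (-0.29, standard error 0.0859, adjusted p = 0.285), SESN2 (0.17, adjusted p = 0.458) and FTL, the ferritin light chain (0.15, standard error 0.0526, adjusted p = 0.522). FTL was higher in 3 of 3 pairs, and TFRC was higher in 1 of 3 pairs. In stromal cells between 50 mM and 5 mM they were GPX1 (0.62), GGCT (1.17) and GPX3 (2.67, standard error 0.752), each with an adjusted p = 0.696 and above 0 in 3 of 3 pairs. GPX3 was 3.51 higher in epithelial than in stromal cells with vehicle control. The epithelial markers also differed within these pairs as given above, and their part in the values of GPX1, GGCT and GPX3 was not tested.

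In the other 6 comparisons within a cell type the genes with the smallest p had adjusted p-values from 0.804 to 1.00. They were SESN1 (0.82), GSTM3 (0.74) and TXNRD2 (-0.62) for glucose in epithelial cells, and AKR7A2 (0.25), SLC40A1 (-0.25) and SOD3 (0.13) for 1 ng/mL against vehicle control. Between 10 and 1 ng/mL in epithelial cells they were TFRC (-0.30), FTL (0.15) and OSGIN1 (0.26). In stromal cells they were TFRC (-0.19), GSTM3 (0.48) and FTL (0.15) for 1 ng/mL against vehicle control, SOD3 (0.29), SQSTM1 (-0.16) and GSTM3 (0.44) for 10 ng/mL against vehicle control, and GPX3 (0.74), SOD1 (0.15) and OSGIN1 (-0.22) between the doses. For the difference of the glucose effect between the cell types they were GPX3 (-2.32), GGCT (-1.07) and EPHX1 (0.99), with adjusted p-values from 0.631 to 0.671. For that of 1 ng/mL they were SLC40A1 (-0.27), GPX3 (0.79) and ABCC3 (0.18), with adjusted p-values from 0.904 to 0.920. For that of 10 ng/mL they were BLVRB (-0.29), GPX1 (-0.26) and OSGIN1 (0.25). Of the list genes 0 were called for any of these differences.

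The pattern over the 30 libraries was described with Pearson correlations of log2(CPM + 1), after the mean of each experiment and cell type was subtracted. The libraries shared replicate numbers, and pairs of genes were not independent. Of the 36 pairs among the 9 genes, 9 had a correlation over 0.5 and 9 were below 0, from -0.49 between NFE2L2 and KEAP1 to 0.88 between TXNRD1 and SRXN1. The share of all gene pairs over 0.5 or below 0 was not counted, so these counts have no background. TXNRD1 with SLC7A11 had 0.75, SLC7A11 with SRXN1 had 0.63, GCLM with SRXN1 had 0.60, and the highest value of HMOX1 among the 9 was 0.73 to GCLC. The sign for NFE2L2 with KEAP1 rested on 1 library that stood apart. Without the epithelial library of replicate 2 at 5 mM, NFE2L2 with KEAP1 had 0.35, and HMOX1 with GCLC had 0.80. Without the stromal library of replicate 3 at 50 mM, HMOX1 with GCLC had 0.70, TXNRD1 with SRXN1 had 0.84 and SLC7A11 with SRXN1 had 0.48. Without both, 7 pairs were over 0.5 and 5 were below 0, and HMOX1 with GCLC had 0.79.

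Of 10716 genes with a mean of at least 1 CPM in both cell types of both experiments, those most like HMOX1 over the 30 libraries were SLC7A2 (0.89), a transporter of cationic amino acids, SLC19A2 (0.87), a thiamine transporter, ETV3 (0.86), a transcription factor of the ETS family, NPC1 (0.86), which moves cholesterol out of lysosomes, and ABHD5 (0.85), an activator of fat droplet lipolysis. Without the subtraction of means, 2 of the 5 remained among the top 5, and with the mean of each replicate number subtracted as well, 0 of the 5 did. Without both libraries that stood apart, 5 of the 5 remained, as they did without the stromal library of replicate 3 at 50 mM alone. Without the epithelial library of replicate 2 at 5 mM alone, 4 of the 5 remained. GCLC was at rank 38 of the 10716 genes with all libraries and at rank 15 without both. It was at rank 47 without this stromal library alone and at rank 17 without this epithelial library alone.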

How the data were processed

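Per the labels and the study's methods, the authors sequenced stranded libraries, checked and trimmed reads with FastQC and cutadapt, aligned them to the Ensembl cow genome with Rsubread and counted uniquely mapped reads per gene with featureCounts. The deposited values used here are these raw read counts per gene, in 1 table for each experiment. Another 13 deposited tables hold the authors' DESeq2 comparisons, and their gene symbols were used for 14951 of the 27607 genes, whereas their fold changes and p-values were not used. The methods name the Ensembl release, and no genome of that release was used here, so neither coordinates nor sequences are printed.

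The 9 genes and all gene lists were chosen with earlier results of these data known. CPM is the count divided by the library total and multiplied by 1000000, and levels are not per gene length, so levels were not compared between genes. Each comparison was fitted with edgeR 4.0.16 in R 4.3.3 (TMM normalization, filterByExpr, quasi-likelihood test) on its own libraries, with the replicate number as a block because the study's methods describe paired tests. P-values were adjusted over all genes tested with the Benjamini-Hochberg method, and a gene was called at an adjusted p under 0.05 with a log2 fold change beyond 0.1. Of 13 comparisons, 11 had a correlation over 0.1 between the deviations of every same-numbered pair. The exceptions were epithelial against stromal cells at 5 mM of glucose (0.0966, 0.0327 and 0.333 in replicates 1, 2 and 3) and at 10 ng/mL of insulin (0.0928, 0.131 and 0.199). Over all 13 comparisons the correlations lay from 0.198 to 0.86 within a cell type and from 0.0327 to 0.526 between cell types. The difference of a treatment effect between cell types was an interaction term. Alternatives were RLE size factors, no filter on low counts, DESeq2 1.42.0, no replicate block, leaving out each replicate number, and 1 fit for the 9 insulin libraries of a cell type. Correlations without the 2 libraries whose markers stood apart were added after seeing the data. The code of the fits was checked on simulated counts that held no replicate effect and no library that stood apart, so the check does not cover these features.

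Beside the 9 genes, the text names in each comparison the 2 called genes of a pathway list with the largest fold change in each direction, or the 3 genes with the smallest p where no gene was called over all lists, and counts the rest. The pathway lists were for regulators, haem and iron, glutathione, thioredoxin and peroxiredoxin, NADPH, detoxification and export, and superoxide and peroxide, and 17 of 18 glutathione and 9 of 12 detoxification genes had a symbol in the tables, as did 5 of 10 leukocyte and macrophage and 5 of 6 endothelial markers. Genes with 2 identifiers (GSTM1 and GSTP1) were left out of the fits. The upper limit for 0 counts is that of 3 counts, and it covers counting error only.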

Additional observations from a re-analysis of the deposited data

How the results depend on the processing

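Of 72 fold changes of the 9 genes for glucose or insulin within a cell type, 39 changed sign under at least 1 alternative. Of the 70 fold changes tabulated under each alternative, within and between cell types, 45 kept their direction and their side of the threshold throughout. Between 10 ng/mL of insulin and vehicle control in epithelial cells, HMOX1 was the 1 called of the 9 genes. HMOX1 was chosen on this comparison, so the count is a description. It became 0 with DESeq2, with no replicate block and in 1 fit of the 9 insulin libraries, settings in which 0 of all genes were called against 16. Without 1 replicate the count was 0 to 1, beside 46, 78 and 13 of all genes without replicates 1, 2 and 3. Between 1 ng/mL and vehicle control in stromal cells, the 0 called became 1 (GCLC) with no filter on low counts (156 of all genes against 2). Without 1 replicate the count was 0 to 1, beside 7, 37 and 103 of all genes without replicates 1, 2 and 3. Between the cell types, DESeq2 called 5 rather than 3 of the 9 genes at 5 mM of glucose (3864 of all genes against 2944) and 5 rather than 2 at 50 mM (3529 against 2397), where the fit with no replicate block called 0 of the 9 and 1088 of all genes. Without 1 replicate these counts ran from 3 to 5 and from 0 to 6, beside 2262 to 3362 and 0 to 3897 of all genes. The block moved no other count of calls by over 1.5 times.

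HMOX1 in epithelial cells between 50 mM and 5 mM was -0.004 with RLE size factors and with DESeq2, -0.061 with no replicate block, and -0.071 to 0.087 without 1 replicate. Without 1 replicate, HMOX1 ran from -0.20 to 0.45 between 10 and 1 ng/mL in epithelial cells, and in stromal cells from -0.17 to 0.01 (0.007) between 1 ng/mL and vehicle control and from -0.35 to 0.10 between the doses. GCLC in stromal cells at 10 ng/mL ran from -0.55 to 0.018, GCLM in epithelial cells at 50 mM from -0.12 to 0.58, and, between the cell types, NFE2L2 at 5 mM from -0.55 to 0.29 and KEAP1 at 50 mM from -0.13 to 0.052. Without the epithelial library of replicate 2 at 5 mM, an alternative chosen after seeing the data, the correlation of NFE2L2 with KEAP1 was 0.350 rather than -0.493, and it was 0.407 without the stromal library of replicate 3 at 50 mM as well. The cause was not tested for any of these. With 3 replicates and 8826470 counts or more per library, the 95% intervals of the glucose effects were wide, up to -0.70 to 3.33 for GCLC in stromal cells.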
